A study of Mus musculus with 8 samples.

Results

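Alternative activation genes are 9 genes that macrophages switch on or depend on when they answer interleukin 4 and interleukin 13: Il4ra, Pparg, Klf4, Clec10a, Mgl2, Retnla, Chil3, Tgm2 and Ccl24. They were chosen by symbol from 21887 protein-coding genes, with earlier results of these data known. Their histone H4 acetylation was read from 8 deposited peak lists of mouse bone-marrow-derived macrophages. Peaks were called near 7 of the 9, and those 7 belong to the 14589 genes that were tested. Retnla and Chil3 had no peak in any library.

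All cells came from C57BL/6 mice, and no group received interleukin 4 or interleukin 13 according to the labels. The 4 groups were untreated cells, cells given PAM3, cells given 25HC, and cells given 25HC and then PAM3. PAM3 is PAM3CSK4, a synthetic lipopeptide that Toll-like receptors recognise as bacterial, and 25HC is 25-hydroxycholesterol, an oxysterol made by activated macrophages. Each group held 2 libraries, 1 from mouse A and 1 from mouse B. The stimulation time in the labels has no unit, and it is 0 in the 4 libraries without PAM3 and 18 in the 4 with it, so PAM3 and that time cannot be told apart. Acetylated H4 was precipitated from whole cultures with a polyclonal antibody, so fewer cells carrying the mark and less of the mark per cell cannot be told apart.

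Interleukin 4 binds a receptor whose alpha chain is encoded by Il4ra, and the kinases on that receptor phosphorylate the transcription factor STAT6. STAT6 then acts with partners such as the nuclear receptor PPARγ and the zinc finger factor KLF4 on effector genes for lectins, chitinase-like proteins, chemokines and transglutaminase. Bacterial lipopeptides drive the opposed, inflammatory programme, and acetylation of histone H4 marks promoters and enhancers in use.

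The RefSeq promoter table (GRCm38.p6) held 8 promoters of 6 of these genes, each running from 250 bases before to 50 bases after a start. The promoters below are shown because they separate the genes that carried a peak at the start in every library from those that never did. In the first pair, which had a peak in all 8 libraries, capitals mark CpG dinucleotides. In the second pair, which had a peak in none, capitals mark matches to the motifs described next. All are written 5′ to 3′ in the direction of the gene.
Il4ra, chr7:125552021-125552320, plus strand: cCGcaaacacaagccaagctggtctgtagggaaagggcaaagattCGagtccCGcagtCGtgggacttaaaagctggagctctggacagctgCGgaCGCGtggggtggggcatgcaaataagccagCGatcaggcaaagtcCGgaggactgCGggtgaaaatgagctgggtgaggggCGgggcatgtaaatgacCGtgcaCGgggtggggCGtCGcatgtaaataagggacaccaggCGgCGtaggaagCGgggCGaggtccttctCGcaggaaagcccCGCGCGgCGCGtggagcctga
Pparg, first listed start, chr6:115360894-115361193, plus strand: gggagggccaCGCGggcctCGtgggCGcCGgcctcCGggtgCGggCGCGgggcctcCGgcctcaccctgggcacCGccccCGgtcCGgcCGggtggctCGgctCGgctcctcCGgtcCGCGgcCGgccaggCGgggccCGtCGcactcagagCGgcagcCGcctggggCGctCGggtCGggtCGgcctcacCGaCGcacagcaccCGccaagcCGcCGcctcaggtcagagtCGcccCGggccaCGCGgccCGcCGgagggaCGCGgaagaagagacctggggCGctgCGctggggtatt
Retnla, chr16:48842359-48842658, plus strand: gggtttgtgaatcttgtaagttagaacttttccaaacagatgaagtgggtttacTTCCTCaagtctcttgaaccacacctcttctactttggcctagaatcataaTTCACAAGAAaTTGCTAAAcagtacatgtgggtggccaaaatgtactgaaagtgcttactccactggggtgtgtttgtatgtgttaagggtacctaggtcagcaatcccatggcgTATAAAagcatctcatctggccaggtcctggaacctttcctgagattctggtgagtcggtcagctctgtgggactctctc
Chil3, chr3:106167515-106167814, minus strand: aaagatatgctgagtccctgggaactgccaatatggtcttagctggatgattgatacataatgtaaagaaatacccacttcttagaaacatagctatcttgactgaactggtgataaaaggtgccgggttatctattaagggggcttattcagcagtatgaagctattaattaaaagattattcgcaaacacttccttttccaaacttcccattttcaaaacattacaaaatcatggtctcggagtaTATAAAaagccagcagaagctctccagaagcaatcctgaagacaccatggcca

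The Il4ra promoter held 25 CpG and the first Pparg promoter 44, against 2 in Retnla and 3 in Chil3. Across 21263 promoters, those with a peak in all 8 libraries (41.3%) had a median of 22 CpG, and those with a peak in none (42.1%) had a median of 4. The second Pparg promoter (13 CpG) also had a peak in all 8, and the Mgl2 promoter (8 CpG) in 7. The third Pparg promoter, with 2 CpG, had none. CpG number did not order all of them, since the Klf4 promoter, with 40 CpG, more than in 94.9% of promoters, had a peak in 1 library only.

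Motifs were searched on both strands, and matches are descriptions of letters only. The STAT6 motif TTCNNNNGAA occurred in 6.35% of all promoters and in 1 of the 8, that of Retnla, where TTCACAAGAA stands 1 base before TTGCTAAA. The latter matches the C/EBP motif TTGCNNAA (10.2% of promoters), which also occurred in the third Pparg promoter. The PU.1 core GAGGAA, present in 27.4% of promoters, occurred in the Retnla promoter as TTCCTC on the other strand, in that of Mgl2 and in the second of Pparg. The motif TATAAA, present in 12.6%, occurred in Retnla, Chil3 and the second Pparg promoter. The AP-1 motif TGANTCA (6.99%) was in none of the 8. The matches within the Retnla promoter do not overlap each other.

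**Figure D1:**
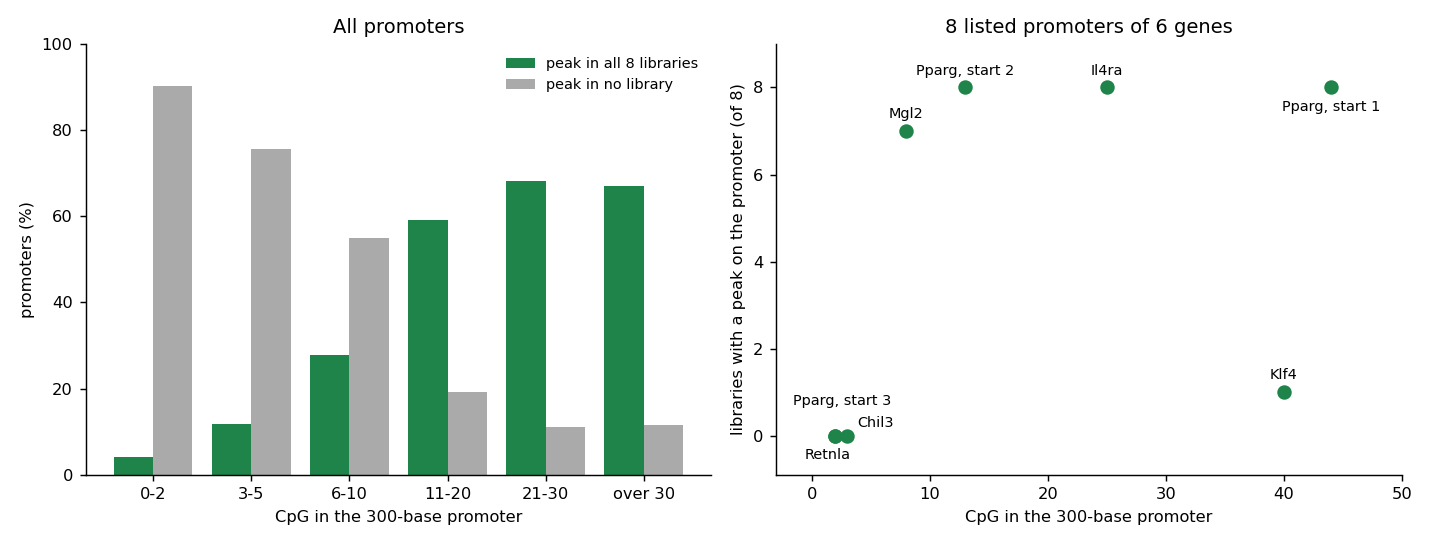
Left, the percentage of all 21263 promoters with a peak in all 8 libraries (green) or in none (grey), by the number of CpG in the 300 bases. Right, the 8 listed promoters of 6 alternative activation genes, with the number of libraries that had a peak on them; Il4ra and the first 2 Pparg starts sit at 8, whereas Retnla, Chil3 and the third Pparg start sit at 0 with 2 or 3 CpG.

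Retnla encodes a secreted resistin-like protein and Chil3 a chitinase-like lectin, both hallmark products of interleukin 4 in mouse macrophages. Neither gene had a called base in its window, which runs from 5 kb before the gene body to 5 kb after it, in any of the 8 libraries. The nearest peak to Retnla lay 10.2 to 10.5 kb from the gene body in all 8. The nearest to Chil3 lay 5.38 kb away in 25HC A, 85.2 kb away in PAM3 A and 143 to 144 kb away in the other 6. A peak list records only what passed the caller's threshold, so weaker acetylation at these genes would not be seen. Neither gene entered a test.

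Called length, the number of bases of a library's peaks inside a gene's window, was the measure for the other 7 genes. With PAM3 it was shorter over the receptor gene Il4ra, over Pparg, over the lectin gene Clec10a and over Tgm2. These 4 of the 7 tested genes fell in the average effect of PAM3, which sets 4 libraries with it against 4 without (limma, adjusted p under 0.05 over 14589 genes), and 0 rose. In the same comparison 858 genes, or 5.88% of those tested, fell and 866, or 5.94%, rose. The 7 genes were chosen with earlier results of these data known, and their count is read with that limit. The median log2 change was −0.46 over the 7 genes and −0.01 over all genes tested. With the mouse as a block in the fit, Clec10a alone of the 4 kept an adjusted p under the threshold.

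Il4ra, on chromosome 7, had 13081 and 11636 bp in untreated A and B and 10327 and 12064 bp in 25HC A and B. It had 8659 and 9519 bp in PAM3 A and B and 8249 and 9442 bp in 25HC then PAM3 A and B. Every library with PAM3 was thus below every library without it. The mean over 4 libraries decreased by 23.9% (log2 change −0.36, standard error 0.08, limma adjusted p = 0.0384). The adjusted p was 0.0706 with the mouse as a block, and it rose above the threshold without any 1 of the 8 libraries (0.0554 to 0.117).

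Pparg, on chromosome 6, encodes a nuclear receptor for fatty acid ligands. It had 19560 and 18219 bp in untreated A and B, 19812 and 21613 bp in 25HC A and B, 11583 and 13928 bp in PAM3 A and B, and 11394 and 16902 bp in 25HC then PAM3 A and B. The 4 libraries with PAM3 again lay below the other 4. The mean decreased by 32.1% (log2 change −0.54, standard error 0.11, limma adjusted p = 0.0361). The adjusted p was 0.0543 with the block. Leaving out either library of 25HC then PAM3 kept the call (0.0175 and 0.0326), and leaving out any of the other 6 ended it (0.0777 to 0.112).

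Klf4, on chromosome 4, showed no such separation. It had 3915 and 2971 bp in untreated A and B, 2979 and 3197 bp with PAM3, 2844 and 2765 bp with 25HC, and 1899 and 2814 bp with 25HC then PAM3. The groups overlapped, and the average effect of PAM3 was −0.17 with a standard error of 0.13 on the log2 scale (limma adjusted p = 0.46).

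Clec10a and Mgl2 are neighbouring genes on chromosome 11 for galactose-binding C-type lectins of macrophages and dendritic cells. Clec10a had 4414 and 2803 bp in untreated A and B and 2809 and 2829 bp with 25HC. With PAM3 it had 1355 and 1723 bp, and with 25HC then PAM3 1365 and 1484 bp. All 4 PAM3 libraries lay below the others, and the mean decreased by 53.9%, the largest decrease among the 7 genes (log2 change −0.88, standard error 0.13, limma adjusted p = 0.0155). The block gave an adjusted p of 0.0291. Without 1 library it ranged from 0.0115 to 0.0561, and the call ended without 25HC A (0.0527) or 25HC B (0.0561).

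Mgl2 did not follow its neighbour. It had 2061 and 0 bp in untreated A and B, 1363 and 1254 bp with PAM3, 2690 and 1566 bp with 25HC, and 1428 and 1475 bp with 25HC then PAM3. Untreated B was the only library without a peak there, and 87 of the tested genes were at 0 in that library alone. The mean was 12.6% lower with PAM3 while the log2 change was 0.15 (standard error 0.52, limma adjusted p = 0.89), so mean and log2 change differ in sign. Without untreated B the log2 change was −0.43.

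Tgm2, on chromosome 2, encodes a transglutaminase that crosslinks proteins and is a marker of alternative activation in mouse and human. It had 6131 and 6177 bp in untreated A and B, 5432 and 4966 bp with 25HC, 2848 and 4073 bp with PAM3, and 3952 and 5275 bp with 25HC then PAM3. The PAM3 libraries lay below untreated and 25HC, whereas 25HC then PAM3 B overlapped 25HC. The average effect of PAM3 was −0.46 (standard error 0.11, limma adjusted p = 0.0474). The adjusted p was 0.0733 with the block and above the threshold without any 1 library (0.0513 to 0.131).

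Ccl24, on chromosome 5, encodes a chemokine that attracts eosinophils. It had 1833 and 2265 bp in untreated A and B, 1644 and 1778 bp with 25HC, 863 and 1035 bp with PAM3, and 967 and 2238 bp with 25HC then PAM3. The 2 libraries of the last group were thus far apart, with A near the PAM3 level and B near the highest untreated value. The average effect of PAM3 was −0.47 (standard error 0.19, limma adjusted p = 0.189). Without 25HC then PAM3 B it was −0.67 (adjusted p = 0.0313), and with windows of 10 kb on either side −1.06 (adjusted p = 0.0203). The window of Ccl24 overlaps that of Ccl26, the only overlap of a window of the 9 genes with another coding gene's window.

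Il4ra, Pparg and Clec10a are the 3 of the 7 genes with no overlap between the libraries with and without PAM3. Over all genes tested, 1409, or 9.66%, were lower in all 4 PAM3 libraries than in the other 4. Marker genes of other cells moved too. Of 9 dendritic cell markers, 7 were tested, 1 rose (Xcr1) and 2 fell (Clec9a and Siglech) in the average effect of PAM3, and Cd209a was at 0 throughout. The call of Xcr1 ended with the block (adjusted p = 0.0515). Their summed called length was 29.21 to 31.92 kb in untreated cells, 19.53 to 24.74 kb with PAM3, 24.74 to 30.3 kb with 25HC and 21.65 to 26.9 kb with both. All 10 macrophage markers had peaks and were tested, and 3 rose (Adgre1, Itgam and Cd14) and 0 fell in that average. For Cd14, PAM3 against untreated gave a log2 change of 0.085 (limma adjusted p = 0.801). After 25HC the change was 0.92 (limma adjusted p = 0.0249, or 0.0519 with the block). Cd14 was also higher in 25HC then PAM3 than in PAM3 (limma adjusted p = 0.0467, or 0.101 with the block). The difference between its responses, 0.84, did not pass (limma adjusted p = 0.243). The call of Itgam ended with the block (adjusted p = 0.0681). The windows of Xcr1 and Cd14 overlap those of Fyco1 and Tmco6, and that of Clec9a overlaps those of Clec12b, Clec1b and Clec1a. The part of these markers, and of those described next, in the changes of Il4ra, Pparg and Clec10a was not tested.

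Of 8 neutrophil markers, 3 were tested, 1 rose and 1 fell in the average effect of PAM3 (limma). Camp, an antimicrobial peptide gene whose window overlaps that of Nme6, had 0 bp in the 4 libraries without PAM3, 1518 and 1706 bp with PAM3 and 1890 and 2133 bp with both (adjusted p = 0.00261). Elane, the neutrophil elastase gene, fell (log2 −1.11, adjusted p = 0.016). Its window overlaps those of Prtn3, Cfd and Med16. Ly6g, S100a9, Ngp and Cxcr2 were at 0 in all libraries. The neutrophil sum was 3.79 to 4.04 kb in the untreated pair, 2.79 to 3.71 kb with PAM3, 3.3 to 3.85 kb with 25HC and 4.52 to 5.5 kb with both. Of 8 lymphocyte markers, 6 were tested, 0 rose and 1 fell, namely Cd2, an adhesion receptor gene, which had 1371 and 1467 bp in untreated cells, 962 and 820 bp with 25HC and 0 in the 4 libraries with PAM3 (limma adjusted p = 0.00925). Camp and Cd2, at 0 either without or with PAM3, met the filter for testing, a mean of at least 500 bp, only through the libraries with peaks. Their adjusted p are read with that limit. Cd3e and Ncr1 were at 0 in all libraries. The lymphocyte sum was 9.44 to 10.16 kb in the untreated pair, 7.22 to 9.88 kb with PAM3, 11.84 to 12.72 kb with 25HC and 7.5 to 7.88 kb with both. Of 7 eosinophil and mast cell markers, 3 were tested and 0 passed (limma), with Epx, Prg2 and Cpa3 at 0 in all libraries. A limma unadjusted p under 0.05 was found for 1 of the 3, and for 3921 of the 14589 genes tested. Of 8 fibroblast and endothelial markers, 4 were tested and 0 passed (limma; 0 had an unadjusted p under 0.05), with Col1a2, Col3a1 and Dcn at 0 in all libraries.

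**Figure D2:**
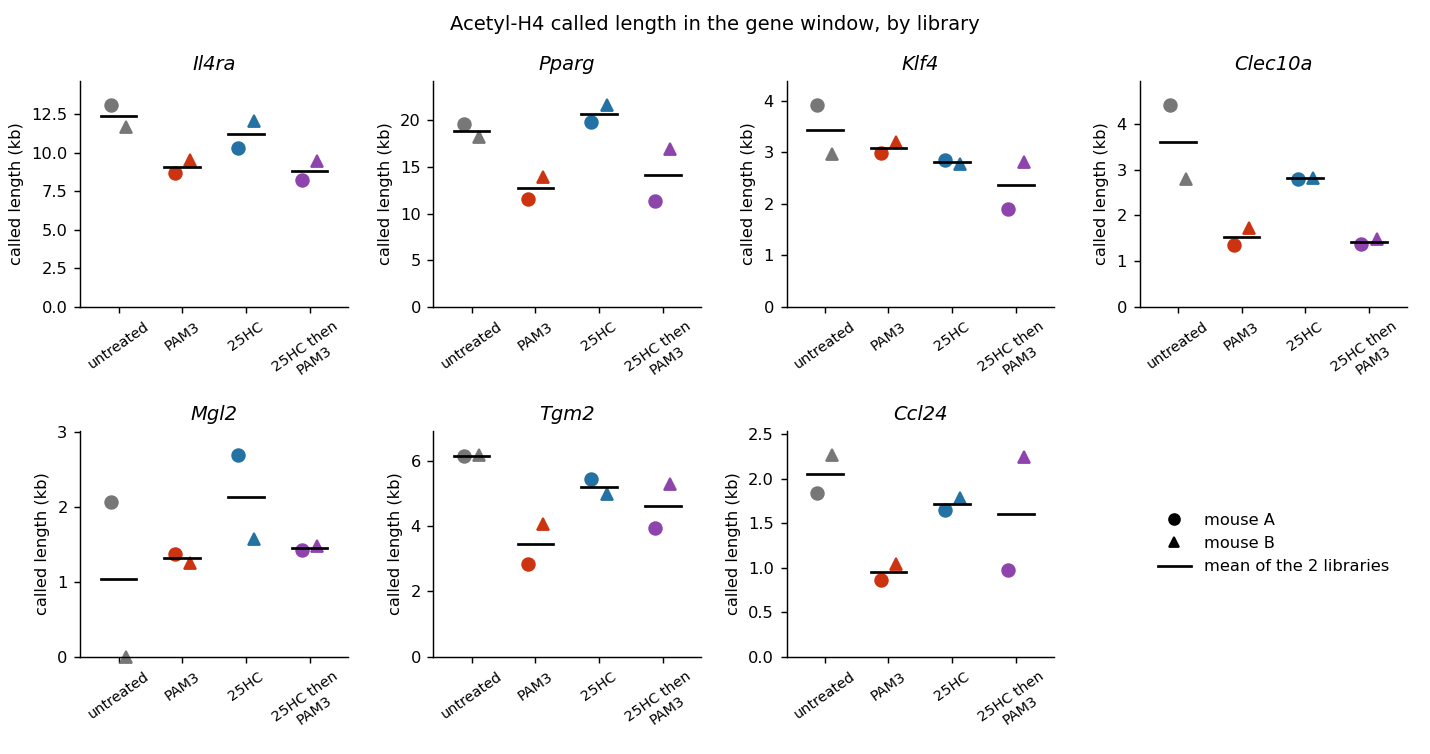
Called length (kb) in the window of each of the 7 genes with peaks, per library; circles are mouse A, triangles mouse B, and the bar is the mean of the 2 libraries. In Il4ra, Pparg and Clec10a all 4 libraries with PAM3 lie below the 4 without, and in Mgl2 untreated B is at 0.

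PAM3 against untreated cells asks what the lipopeptide does without added oxysterol, over 2 libraries against 2. None of the 7 genes passed (limma), while 288 genes, or 1.97% of those tested, fell. A limma unadjusted p under 0.05 was found for 5 of the 7, and for 2794 of the 14589 genes tested. The lowest adjusted p was 0.0563 for Clec10a, with a log2 change of −0.94, followed by 0.064 for Tgm2 with −0.72. Il4ra had −0.38 (adjusted p = 0.138), Pparg −0.51 (adjusted p = 0.162) and Ccl24 −0.77 (adjusted p = 0.2). Klf4 had −0.08 and Mgl2 0.72, with adjusted p of 0.88 and 0.661.

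Cells that had met the oxysterol first were compared as 25HC then PAM3 against 25HC. Again none of the 7 passed (limma), and 335 genes, or 2.3%, fell. A limma unadjusted p under 0.05 was found for 3 of the 7, and for 3120 of the 14589 genes tested. Clec10a had a log2 change of −0.81 (adjusted p = 0.0701), Pparg −0.58 (adjusted p = 0.106) and Il4ra −0.35 (adjusted p = 0.139). Tgm2, with −0.19, and Ccl24, with −0.17, had values nearer to 0 than without the oxysterol. All 7 values were negative here, and the median over all genes tested was −0.02.

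The PAM3 response after 25HC was also set against the response without it. None of the 7 genes passed that test (limma; 1 had an unadjusted p under 0.05), and 0 of all genes tested did (0.0%; 1438 had an unadjusted p under 0.05). Tgm2 was the 1 gene, with a difference of 0.53 on the log2 scale, a standard error of 0.21 and an unadjusted p of 0.0481 (limma adjusted p = 0.502). Ccl24 had 0.60 with a standard error of 0.38 (limma adjusted p = 0.696). The differences of Il4ra, Pparg and Clec10a were 0.03, −0.08 and 0.13, with standard errors of 0.15, 0.23 and 0.26. A p above the threshold does not show that the response was alike with and without the oxysterol.

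For 25HC itself no change at these genes passed the test. Against untreated cells 0 of 7 passed (limma, adjusted p = 0.99997 for each; 0 had an unadjusted p under 0.05), with 5 of all genes passing (0.0343%). The log2 changes of Il4ra, Pparg and Clec10a were −0.08, 0.19 and −0.22, with standard errors of 0.11, 0.16 and 0.19. In 25HC then PAM3 against PAM3, 0 of 7 passed (limma; 0 had an unadjusted p under 0.05) and 190 of all genes did (1.3%). The lowest adjusted p was 0.34, for Tgm2 with a log2 change of 0.37. In the average effect of 25HC, 0 of 7 passed (limma; 0 had an unadjusted p under 0.05) and 10 of all genes did (0.0685%), with the lowest adjusted p, 0.506, for Klf4 at −0.27.

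**Figure D3:**
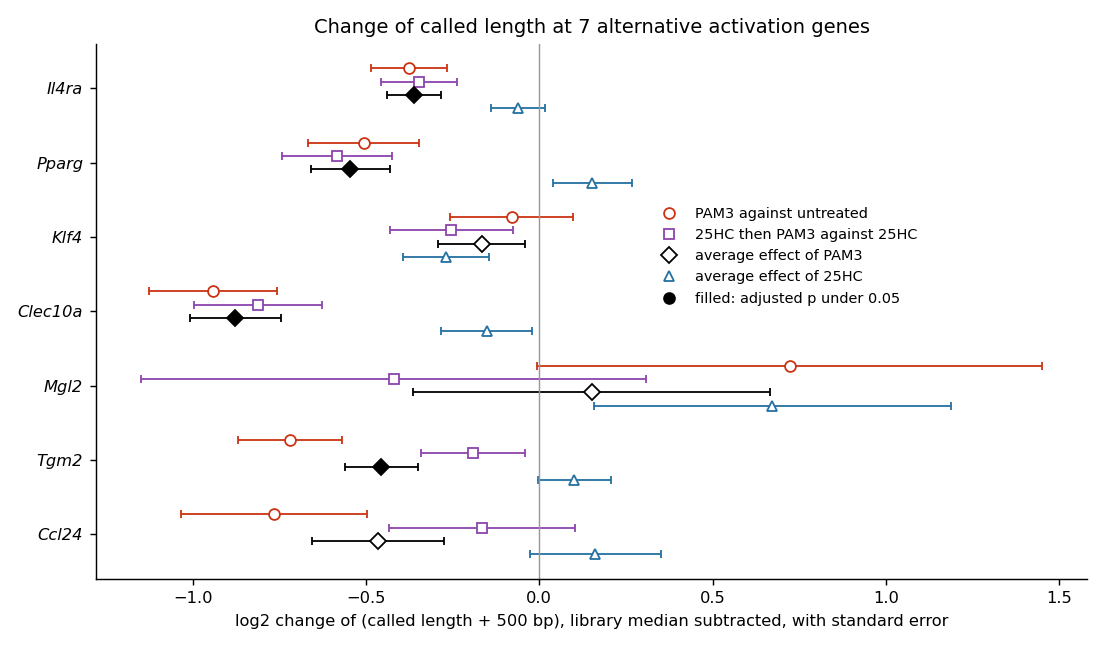
Log2 change of called length plus 500 bp, with the standard error, for the 7 genes in 4 comparisons, named in the legend. Filled marks have a limma adjusted p under 0.05 and are the average effects of PAM3 on Il4ra, Pparg, Clec10a and Tgm2; Mgl2 has the widest errors.

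Single peaks were read to place the called length within each gene. The 205 peaks in the 7 windows were 211 to 5795 bp long and merged into 35 regions, of which 14 were called in all 8 libraries and 7 in 1 only. Called length was lower in all 4 libraries with PAM3 than in all 4 others in 8 of the 35 regions and higher in 0. Of the 4 genes with peaks and a listed start (Il4ra, Pparg, Klf4 and Mgl2), the 4 regions at a start included 0 such regions, and the 20 regions away from it included 5. Clec10a, Tgm2 and Ccl24 have no listed start and are in neither count. They held 1 lower region each, and that of Clec10a spans an end of the gene. Among all regions in gene windows, 9.01% of those at a listed start and 6.71% of those elsewhere were lower in this way. The shares that were higher were 5.26% and 4.9%. These regions were read with no test.

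At Il4ra, the longest region (chr7:125550251-125556652) spans the start and held 3481 to 5795 bp in every library. Within 1 kb of the start, 1885 to 2001 bp were called throughout. A region 20.75 to 24.02 kb into the gene body (chr7:125573020-125576286) behaved otherwise. It held 1797 and 1863 bp in the untreated pair, 2823 and 3109 bp with 25HC, was absent from both PAM3 libraries, and held 514 and 472 bp with 25HC then PAM3. This intragenic stretch and a region in the flank past the gene end (chr7:125580934-125583934, 1158 to 2788 bp with PAM3 and 2838 to 2964 bp without) are the 2 lower regions of Il4ra. A short region (chr7:125565980-125566437) was called only after 25HC then PAM3, with 419 and 342 bp.

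Pparg held 16 regions over a gene body of 129526 bp. The region over its first 2 listed starts (chr6:115360315-115362380) was called at 1841 to 2051 bp in all 8 libraries. The third listed start had no peak within 1 kb. The longest region spans the end of the gene (chr6:115489235-115494273) and held 3747 and 4282 bp in the untreated pair, 4532 and 4820 bp with 25HC, against 1089 and 779 bp with PAM3 and 1365 and 1847 bp with both. The other 2 lower regions lie 108.12 to 110.52 kb (0 to 1331 bp with PAM3, 1549 to 2377 bp without) and 118.11 to 121.0 kb (1916 to 2259 bp against 2406 to 2767 bp) into the gene. All 3 lower regions of Pparg thus lie in the part toward its end. Of the 16 regions, 5 were called in 1 library only. Those at 36.26 and 63.35 kb were in 25HC then PAM3 B, and that at 21.37 kb in 25HC then PAM3 A. The one at 85.25 kb was in PAM3 B, and the one at 115.76 kb in untreated A.

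**Figure D4:**
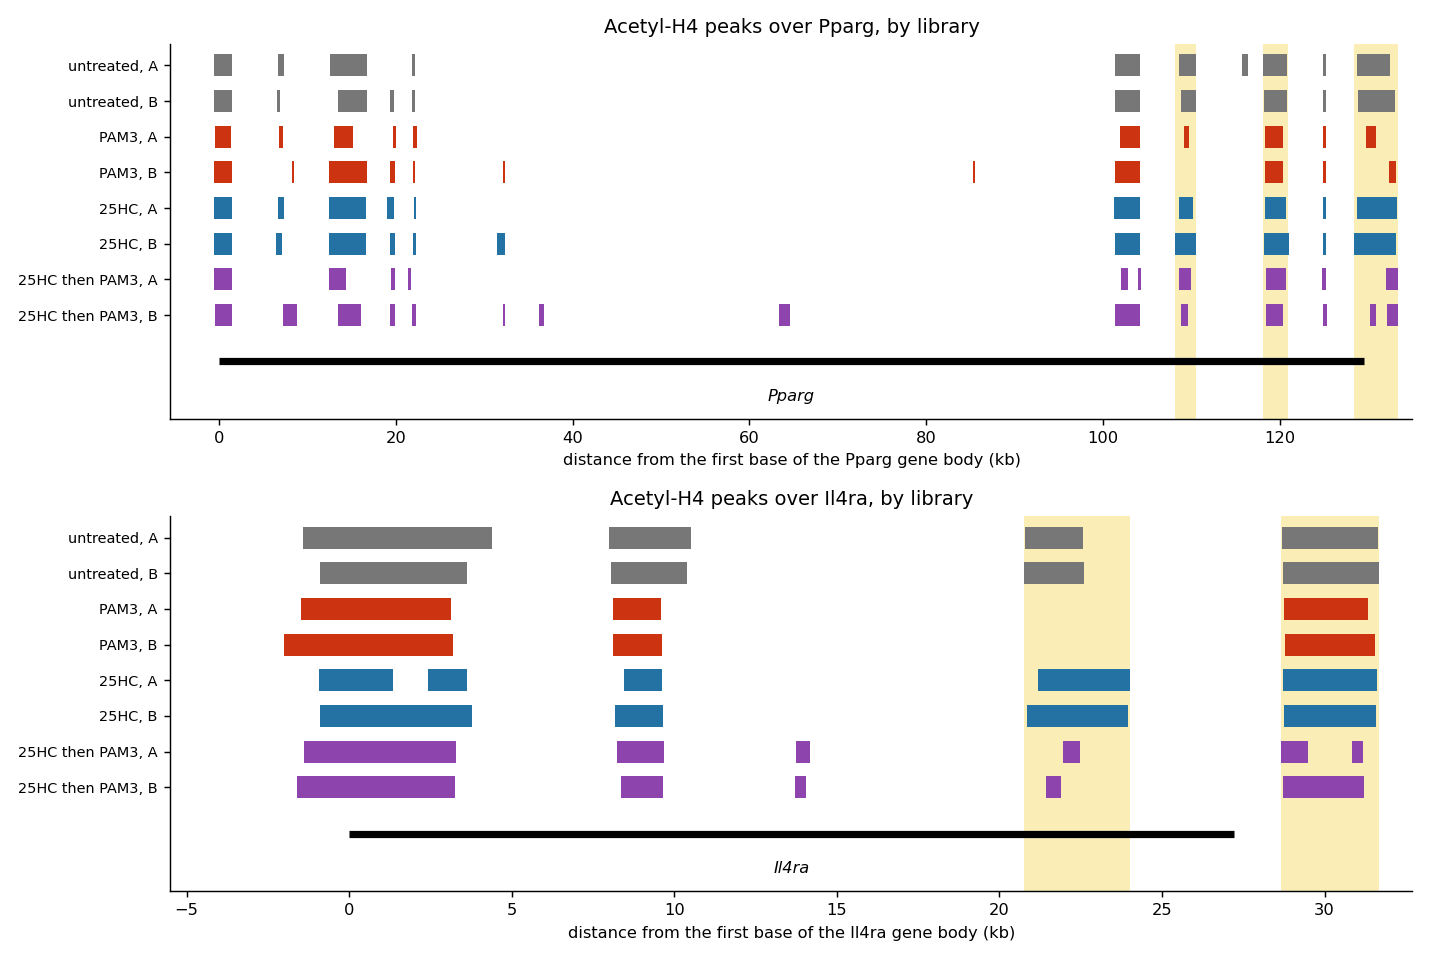
Peaks of each library over Pparg (top) and Il4ra (bottom), by distance in kb from the first base of the gene body (black bar); A and B are the mice. Shaded regions are lower in all 4 libraries with PAM3, and the peaks at the starts, near 0, are present in all 8 libraries.

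At Klf4 (region chr4:55529963-55534337), peaks flanked the start rather than covered it. In 7 libraries a peak over the gene and a peak upstream left a gap of 886 to 1053 bp, into which the 300-base promoter with its 40 CpG fell, and in untreated A 1 peak of 3915 bp bridged it. The upstream peak was 1549 and 1567 bp long with 25HC then PAM3, 1168 and 1440 bp with PAM3, 1122 and 1095 bp with 25HC and 1189 bp in untreated B. The peak over the gene was 350 and 1247 bp long with 25HC then PAM3 and 1670 to 1811 bp in the other 5 libraries with a gap.

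The main Clec10a region (chr11:70165613-70169023) spans the lower-coordinate end of the gene and reached 3361 and 2467 bp in the untreated pair, and 2512 and 2543 bp with 25HC. It kept 1355 and 1434 bp with PAM3 and 1365 and 1484 bp with both, so the peak was shorter rather than absent. A smaller region in the other flank (chr11:70174174-70175226) held 1053 and 336 bp in the untreated pair, 297 and 286 bp with 25HC, 0 and 289 bp with PAM3, and 0 in both libraries of 25HC then PAM3. The Mgl2 region at its start (chr11:70128637-70131326) held 1254 to 1475 bp in the 4 PAM3 libraries and 1644, 0, 2690 and 1566 bp in the others. In untreated B, peaks of 1008 and 1267 bp stood between the 2 genes, outside both windows.

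At Tgm2, the longest region spans the higher-coordinate end (chr2:158144165-158146465) and was called in all libraries, at 1287 to 1521 bp without PAM3 and 1478 to 2245 bp with it. A region 14.04 to 14.98 kb from the other end (chr2:158130448-158131389) was called in all 4 libraries without PAM3, at 238 to 795 bp, and in none with it. A region at 19.38 to 20.13 kb (chr2:158135784-158136534) was absent from both PAM3 libraries only, with 328 to 653 bp in the other 6, including 550 and 570 bp after 25HC then PAM3. At Ccl24 the longest region spans the lower-coordinate end (chr5:135567365-135569945, 863 to 1967 bp). A region inside the gene (chr5:135572541-135573056) held 392 to 504 bp without PAM3, 0 in both PAM3 libraries, and 0 and 271 bp after 25HC then PAM3.

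**Figure D5:**
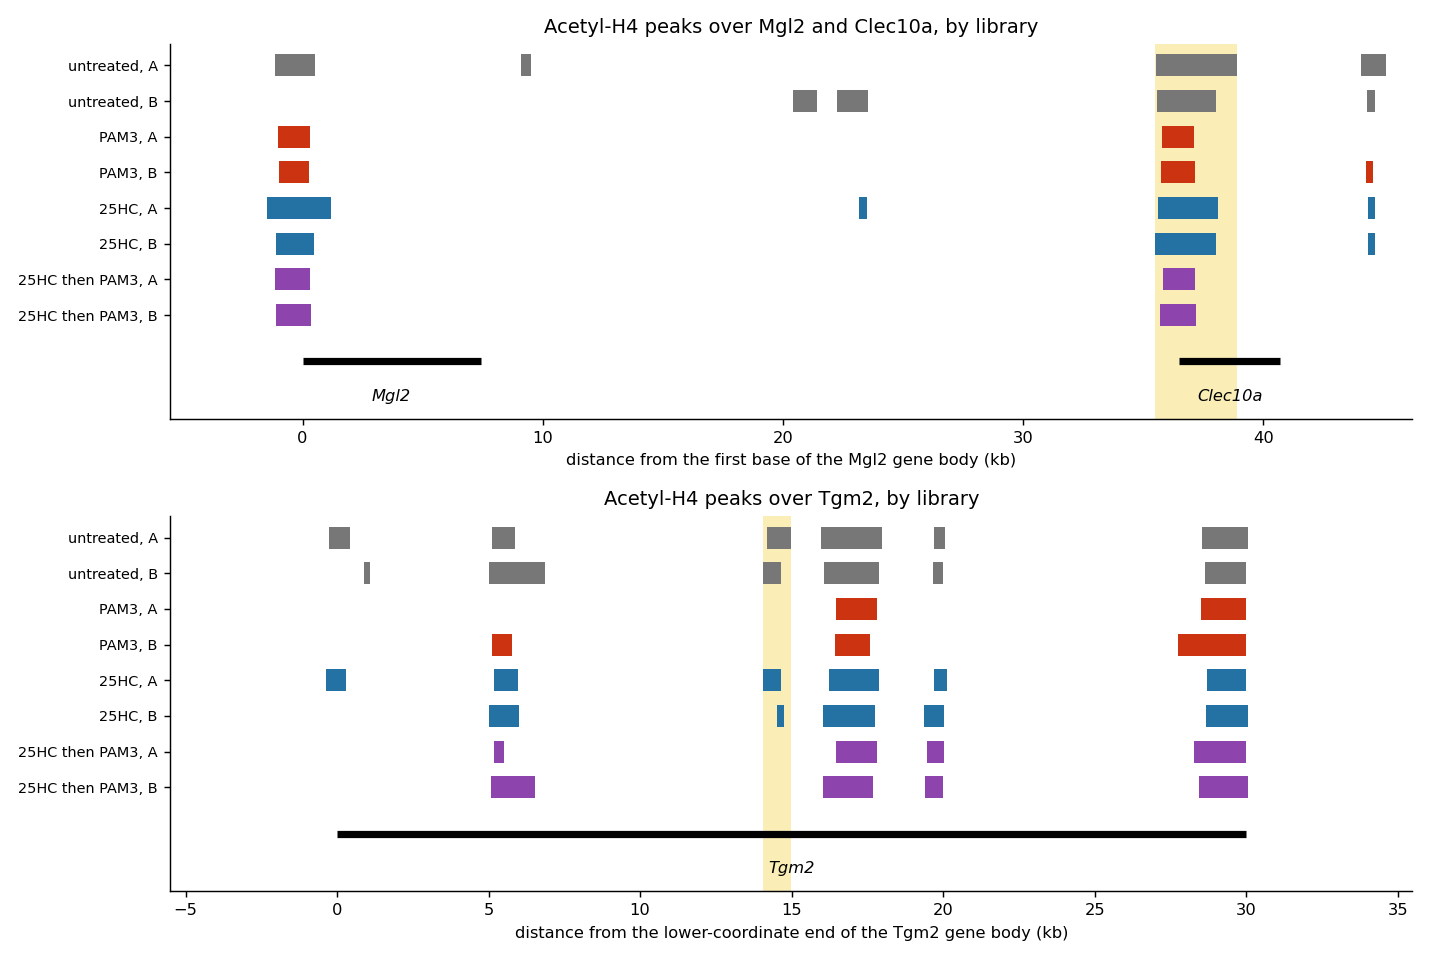
Peaks of each library over Mgl2 and Clec10a (top) and Tgm2 (bottom), by distance in kb from the lower-coordinate end of Mgl2 or Tgm2; black bars are gene bodies and A and B are the mice. The shaded Clec10a region is shorter in all 4 libraries with PAM3, and the shaded Tgm2 region is absent from them.

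The 7 genes did not vary as a unit over the 8 libraries. Pearson's r of their log2 values was 0.95 for Il4ra with Clec10a, 0.88 for Tgm2 with Ccl24 and 0.85 for Il4ra with Pparg, and −0.27 to 0.09 for Mgl2 with the other 6. The 8 libraries share 4 treatments and 2 mice, so these values describe and test nothing. Those of Mgl2 include untreated B, its only library at 0 bp, and r without that library was not computed. Elsewhere Mgl2 had 1254 to 1475 bp with PAM3 and 1566 to 2690 bp without it. The 2 genes most like each, by the same measure over 13936 genes, were Cst7 (0.99) and Ccdc177 (0.98) for Il4ra, Igsf3 and Rpp25 (both 0.98) for Pparg, and Pcdh12 and Crygd (both 0.99) for Clec10a. They were Ankrd29 (0.96) and Nup107 (0.93) for Klf4, Atp2a1 (0.99) and Eef1aknmt (0.97) for Mgl2, Il18r1 and Impact (both 0.98) for Tgm2, and Ppil2 and Sox8 (both 0.96) for Ccl24.

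Other genes of the pathway moved in both directions. In the interleukin 4 receptor and STAT6 list, 14 of 15 genes were tested, and in the average effect of PAM3 2 rose and 2 fell (limma), with a list median of 0.09. All genes tested gave 5.94% rising and 5.88% falling in this comparison, the shares against which the counts of this and the next lists are read. The risers were Jak2, a kinase gene whose window overlaps that of Insl6 (log2 1.03, adjusted p = 0.0206), and Irs2, an adaptor of the receptor (log2 0.63, adjusted p = 0.008). Besides Il4ra, the window of Il4, the cytokine gene, fell. The untreated libraries had 2222 and 2181 bp there, those with 25HC 2018 and 2191 bp, those with PAM3 1409 and 1445 bp, and 0 remained in both libraries of 25HC then PAM3 (limma adjusted p = 0.00261 for the average effect). That window overlaps the window of Kif3a. Il4 also fell in 25HC then PAM3 against PAM3 (limma adjusted p = 0.0192, or 0.0724 with the block).

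Stat6, named after its values were seen, had 2655 and 2721 bp after 25HC then PAM3 and 3983 to 6318 bp in the other 6 libraries. Its log2 change in 25HC then PAM3 against PAM3 was −0.83 (limma adjusted p = 0.0589), and its window overlaps that of Nab2. Il13ra1, from the same interleukin 4 receptor and STAT6 list and also named after its values were seen, went the other way. Its log2 change in that comparison was 0.68 (limma adjusted p = 0.0632).

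Of 19 transcription factor genes of alternative activation, all tested, 2 rose and 2 fell in the average effect of PAM3 (limma, list median 0.00). Klf6, a zinc finger factor, rose by 0.52 and Nr1h3, the gene of the oxysterol receptor LXRα, rose by 0.38 (adjusted p = 0.0239 and 0.0232). The window of Nr1h3 overlaps those of Madd, Acp2 and Ddb2, and the sign turned without the flanks (−0.091). Beside Pparg, Rxra fell, the gene of the partner with which PPARγ binds DNA (log2 −0.40, adjusted p = 0.0268). Rxra had 22822 and 19229 bp in untreated cells, 14376 and 16808 bp with PAM3, 17222 and 16774 bp with 25HC, and 12015 and 13478 bp with both. Its PAM3 B library lay between the 2 libraries with 25HC, so the groups overlapped.

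Of 33 genes listed as effectors of interleukin 4 in mouse macrophages, 32 were matched and 27 tested. Their induction by interleukin 4 was not measured here. Of the 27, 3 rose and 6 fell in the average effect of PAM3 (limma, list median −0.24). Clec10a and Tgm2 are among the 6. Cd163, a haemoglobin scavenger receptor gene, fell by 0.64 (adjusted p = 0.0118). Mmp12, the macrophage elastase gene, whose window overlaps that of Mmp1b, also passed as lower (adjusted p = 0.0169). Its libraries had 1579 and 1090 bp in untreated cells, 0 in both with PAM3, 1455 and 1813 bp with 25HC and 1652 and 1792 bp with both. Mmp12 was higher in 25HC then PAM3 than in PAM3 (limma adjusted p = 0.022, or 0.073 with the block).

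The proton pump gene Atp6v0d2 fell by 0.84 (adjusted p = 0.0304), and Clec7a, the beta-glucan receptor gene, whose window overlaps those of Clec1a and Olr1, fell by 0.97 (adjusted p = 0.0323). Under the block these became 0.059 and 0.0533. Cd36, a lipid scavenger receptor gene, rose by 0.47 (adjusted p = 0.0144), Il1rn, the interleukin 1 receptor antagonist gene, by 0.99 (adjusted p = 0.0318), and Cd200r1, an inhibitory receptor gene, by 0.32 (adjusted p = 0.0433). The block gave 0.0632 for Il1rn and 0.0759 for Cd200r1. In PAM3 against untreated, 3 of the 27 fell, namely Mmp12, Clec7a and Cd163 (adjusted p = 0.017, 0.0476 and 0.038, limma), and 0 rose. Under the block Clec7a had 0.0836 and Cd163 0.0588.

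Arg1, the arginase gene and a classical mark of this programme, was named after its values were seen. It had 5059 and 5115 bp in untreated cells, 3487 and 2645 bp with PAM3, 4109 and 3978 bp with 25HC and 6082 and 6619 bp with both. The last group was the highest and PAM3 the lowest, with a log2 change of 0.94 between them (limma adjusted p = 0.0934). Its window overlaps that of Med23.

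Among 9 tested paralogs and neighbours of the 9 genes, 0 rose in the average effect of PAM3 (limma), and Syn2, a synapsin gene near Pparg, fell. Syn2, whose window overlaps that of Timp4, had 7988 and 7325 bp in untreated cells, 7238 and 7791 bp with 25HC, 2510 and 3854 bp with PAM3 and 2364 and 3543 bp with both (log2 −1.19, adjusted p = 0.00723). Every library with PAM3 was below every library without. Markers of adipocytes, cells for which Pparg is the master regulator, were read beside it. Of 4 genes 3 were tested, Adipoq and Cfd fell (adjusted p = 0.0226 and 0.0164) and Lep was at 0 in all libraries. The window of Cfd overlaps that of Elane, named above among the neutrophil markers. The summed called length of the adipocyte markers was 8.85 to 10.37 kb in untreated cells, 7.72 to 9.46 kb with 25HC, 4.32 to 4.34 kb with PAM3 and 4.01 to 4.83 kb with both. Their part in the change at Pparg was not tested. Other settings ended many of the 49 calls made for genes of these lists other than the 9 genes, all marker lists included. The block ended 22, weighting lengths by the deposited fold 35, and the same covered length in each library 46. With −log10 q of at least 5, 0 of 43 calls were kept and 4 turned sign. Leaving out 1 library at a time ended calls as well.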

How the data were processed

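Acetyl-H4 chromatin immunoprecipitation libraries were read as 8 broad peak lists. The submitters' processing notes name GSNAP, the build GRCm38 (mm10) and MACS2 2.1.0, and each library has its own peak list. For controls, filters and thresholds: not given in the sources used here. Without read counts, depth is unknown and no interval for counting error can be given. The lists held 48446 to 54552 peaks and covered 56.6 Mb (PAM3 A) to 72.4 Mb (PAM3 B). The deposited coordinates were used as given. The deposited score, fold ratio over background and −log10 p and q of each peak are the authors' values. Between the 2 libraries of a group, over matched peaks, Spearman's rho was 0.103 to 0.199 for the fold and 0.707 to 0.861 for peak length, so no fold is reported for a peak.

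Called length was summed per gene body with a flank of 5 kb, from a RefSeq gene table (GRCm38.p6). Log2 of called length plus 500 bp, with each library's median subtracted, was fitted for the 14589 genes with a mean of at least 500 bp, in 1 model of 4 groups (limma 3.58.1, R 4.3.3, trend and robust, 4 residual degrees of freedom). The scale understates changes of short lengths. Adjusted p are Benjamini-Hochberg over all genes tested, and 0.05 is the threshold. The fit was tested on simulated data with independent normal noise, which differs from lengths that can be 0. Of 100 genes changed by 1 on the log2 scale, PAM3 against untreated recovered 46, with 1 false call. The average effect of PAM3 recovered 72, with 3 false calls. Nothing in the labels says that libraries of a group are separate cultures beyond the mouse, so p-values measure the spread between these libraries.

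The labels name mouse A or B for each library, which pairs libraries across groups. Correlations of paired deviations from the mean of a group ran from −0.017 to 0.0304. Where a fit blocked by mouse ended a call, its value is given beside it. Comparisons that share libraries are not independent.

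The genes and the lists were chosen with earlier results of these data known. The text names the 9 genes, list genes past the threshold, the 2 genes most alike to each, and regions that are longest or called in both libraries of 1 group and neither of another. A list gene that passed is not reported here. The alternatives tried are the block, leaving out each library, other scalings, pseudocounts, filters, windows, peak thresholds and model settings.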

Additional observations from a re-analysis of the deposited data

How the results depend on the processing

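The counts rest on 2 libraries a group and an unknown depth. Over the 22 alternatives, all limma fits, Clec10a kept its call in the average effect of PAM3 in 17, Pparg in 9, and Il4ra and Tgm2 in 7. The number of the 9 genes called there, 4 in all, was 1 with the replicate block for the mouse, with equal numbers of peaks per library, and without median subtraction. It was 2 without flanks, 0 with the same covered length, with −log10 q of at least 5 and with lengths weighted by the fold, and 0 to 3 without 1 library. Settings that pick peaks by their score or fold rest on values that agreed little between libraries. For PAM3 against untreated it was 1 without flanks or with 10 kb flanks, for 25HC then PAM3 against 25HC 1 with 10 kb flanks, and 0 to 1 for each without 1 library.

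Counts over all genes moved as follows. PAM3 against untreated gave 564 genes, but 168 with the replicate block, 321 without median subtraction, 284 with equal numbers of peaks, 2 with the same covered length, 0 with −log10 q of at least 5 (1237 at an unadjusted p under 0.05), 30 with fold weights and 160 to 872 without 1 library. 25HC then PAM3 against 25HC gave 733, and in the same order 281, 360, 383, 0 (1772 unadjusted), 0 (1516 unadjusted), 125 and 108 to 814. The average effect of PAM3 gave 1724, but 1095 without median subtraction, 186 with the same covered length, 0 with −log10 q of at least 5 (1716 unadjusted), 583 with fold weights and 714 to 1861 without 1 library. 25HC then PAM3 against PAM3 gave 190, but 91 without median subtraction, 59 with equal numbers of peaks, 90 with a mean of at least 2000 bp, 0 with the replicate block, the same covered length, −log10 q of at least 5 or fold weights (1267 to 2112 unadjusted), and 0 to 434 without 1 library.

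25HC against untreated gave 5, but 12 without flanks, 13 without the trend and robust settings, 0 with the replicate block, the same covered length, a pseudocount of 2000 bp, a mean of at least 2000 bp, −log10 q of at least 5, 10 kb flanks or fold weights (442 to 830 unadjusted), and 0 to 97 without 1 library. The average effect of 25HC gave 10, but 19 with a pseudocount of 100 bp, 44 without flanks, 62 without trend and robust, 0 under those 7 settings, with equal numbers of peaks and without median subtraction (1057 to 1824 unadjusted), and 0 to 240 without 1 library. The PAM3 response after 25HC minus that without it gave 0, but 3 with a pseudocount of 100 bp, 9 without flanks, 32 without trend and robust and 0 to 192 without 1 library.

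Log2 changes turned sign mainly with −log10 q of at least 5. In the average effect of PAM3 they became 0.13 for Il4ra, 0.15 for Klf4, −0.58 for Mgl2, −0.45 for Nr1h3 and −0.60 for Cd14. Against untreated they became 0.018 for Il4ra and 0.081 for Tgm2, and in 25HC then PAM3 against 25HC 0.24 for Il4ra, 0.50 for Klf4, 0.34 for Clec10a, 0.25 for Ccl24, 0.10 for Il4 and −0.018 for Cd14. In 25HC then PAM3 against PAM3, Tgm2 became −0.33 and Stat6 0.43, and Tgm2 became −0.68 in the difference between the responses. Mgl2 turned in the average effect of PAM3 without untreated B (−0.43), without 25HC B (−0.02), with the same covered length (−0.77) and with a pseudocount of 2000 bp (−0.0076), with −0.43 to 0.74 over the fits without 1 library, and against untreated without untreated B (−0.44, up to 1.89 without untreated A) and with the same covered length (−0.22). In 25HC then PAM3 against 25HC, Mgl2 became 0.21 and Cd2 0.060 with 10 kb flanks, and Ccl24 became 0.24 without 25HC then PAM3 A (lowest −0.57, without 25HC then PAM3 B), 0.061 with the same covered length and 0.31 with fold weights. Against untreated, Klf4 became 0.083 without untreated A (lowest −0.24, without untreated B). Nr1h3 became −0.091 without flanks. The cause was not tested.

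Ccl24 and Mgl2 did not pass a mean of at least 2000 bp or the filter without flanks. With at least 50% of a region covered, 10 regions in place of 6 were in both libraries of 1 group and neither of another.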
